A study of Mus musculus with 23 samples.

Results

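Liver ILC1s that expressed granzyme C at the time of sorting were compared with liver ILC1s that had expressed it in the past. Type 1 innate lymphoid cells (ILC1s) are relatives of natural killer (NK) cells that live in tissues, and Gzmc encodes granzyme C, a protease of their cytotoxic granules. The DP population (double positive, GzmC+GzmcFM+) carried both the granzyme C reporter and the fate-map mark that records earlier use of Gzmc. The FMSP population (fate-mapped single positive, GzmC-GzmcFM+) carried the mark alone. The comparison took the 8 RNA libraries labelled DP and FMSP of mice 3, 4, 5 and 6, out of 15 RNA libraries and 23 samples in the series. Each library held all cells of a population that could be sorted from the liver of 1 mouse, and each of the 4 mice gave a DP and an FMSP library, so the comparison can be made within a mouse. The other RNA libraries were 3 of DN ILC1s (GzmC-GzmcFM-, no record of granzyme C) and 4 of S1pr5eGFP+ NK cells. All 4 populations came from liver, and the labels used here give no age, sex, treatment or further genotype for the mice. The 8 libraries held 51641248 to 68535096 counts, with at least 1 count for 14713 to 20057 genes.

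Cytotoxic lymphocytes kill by releasing perforin, which opens the membrane of a target cell, together with granzymes, which cleave proteins inside it. Liver ILC1s are held in the tissue by receptors such as CXCR6 and CD49a, whereas circulating NK cells keep the machinery for leaving tissue, including the sphingosine-1-phosphate receptors and the factor KLF2 that drives their expression. A fate-map mark is permanent, so a cell that has the mark but no reporter signal is read as one that used the gene earlier and was below the gate when sorted.

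Gzmc lies on chromosome 14 at 56231397 to 56241647 (GRCm38.p6), in a row of serine protease genes between the chymase Cma1 and Gzmb, which ends the row at 56258836 to 56262334. The 250 bases before the RefSeq start of Gzmc and of Gzmb are shown, the first because Gzmc is the gene sorted on. Its neighbour Gzmb was added because it alone among 22 members of the cytotoxic granule list below had an unadjusted edgeR p under 0.05. The Gzmc window lies inside the annotated span of the gene, before the start used in the RefSeq promoter table. Capitals mark 4 short motifs searched on both strands, namely TGACGTCA (the CRE motif), TGANTCA (AP-1), TGTGGT (RUNX) and TCACAC (the T-box core).
Gzmc, chr14:56234658-56234907, minus strand: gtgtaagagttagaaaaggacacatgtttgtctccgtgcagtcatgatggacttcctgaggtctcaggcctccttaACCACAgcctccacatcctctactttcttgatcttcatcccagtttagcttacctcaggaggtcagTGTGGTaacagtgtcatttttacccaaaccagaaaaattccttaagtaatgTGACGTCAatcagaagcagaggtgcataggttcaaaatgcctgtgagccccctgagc
Gzmb, chr14:56262335-56262584, minus strand: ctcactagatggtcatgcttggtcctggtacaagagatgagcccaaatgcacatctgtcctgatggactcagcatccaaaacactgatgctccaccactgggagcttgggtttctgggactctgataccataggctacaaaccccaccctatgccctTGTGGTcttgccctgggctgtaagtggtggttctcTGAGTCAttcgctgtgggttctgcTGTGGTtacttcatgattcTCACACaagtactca

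Both windows held the RUNX letters in 2 places, and 14% of 32851 RefSeq windows of this length held them at least once. The Gzmc window held 1 CRE match, beginning 57 bases before the start, and 1.55% of all windows had such a match. The Gzmb window held 1 AP-1 match, beginning 58 bases before its start, against 6.75% of all windows, and 1 T-box match, against 12.3%. These are matches of letters in the reference sequence. Binding at these windows was not measured in DP or FMSP cells.

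Gzmc is the gene the sort was built on, so its level checks the labels. In DP libraries of mice 3, 4, 5 and 6 it stood at 496, 320, 360 and 320 CPM (counts scaled by sequencing depth, on TMM-scaled library sizes). In the FMSP libraries of the same mice it stood at 42.0, 26.4, 31.3 and 21.8 CPM. Every DP library was above every FMSP library, and FMSP cells kept 8.46%, 8.25%, 8.70% and 6.79% of the level of DP cells from the same mouse. The ratio was therefore nearly the same in all 4 animals. The fitted log2 fold change was 3.62 ± 0.39 (SE, 95% interval 2.80 to 4.45), with an edgeR adjusted p of 0.00246. The FMSP level was not that of cells without a history of the gene: the 3 DN libraries averaged 11.4 CPM and the 4 NK libraries 2.31 CPM. In bulk libraries, fewer cells with the transcript and less transcript per cell cannot be told apart, for this gene and for all that follow.

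No other gene passed the test. Of 17124 genes tested with edgeR's quasi-likelihood method, 1 was called higher in DP (0.00584%) and 0 were called lower (0%), at an adjusted p under 0.05. An unadjusted p under 0.05 was found for 769 genes, 123 higher in DP and 646 lower. The lowest adjusted p of any gene other than Gzmc was 1. With the mouse as a replicate block in the DP and FMSP libraries, edgeR again called Gzmc only, and the next genes, Gzmb and Ly6c2, came to an adjusted p of 0.06. DESeq2 with the mouse as a term called 67 genes higher (0.475% of 14110) and 141 lower (0.999%). The tools thus differ in how many genes they call. Below, a call is one by edgeR over all libraries. Paired DESeq2 calls are given beside it for the granule, activating receptor, conventional NK and T cell lists and for genes outside the lists. In other lists below, paired DESeq2 also called genes. Lower were 4 hepatocyte, 3 Ly49, 3 immediate early or heat shock, 2 tissue exit and 2 transcription factor genes. Higher were 1 gene each of the transcription factor, inhibitory receptor and liver ILC1 lists.

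DP and FMSP of a mouse were about as close as, or closer than, libraries of the same population from different mice. Over the genes tested, the median absolute difference in log2 CPM between DP and FMSP of the same mouse ran from 0.34 to 0.49 over the 4 mice, with a median of 0.39. For 12 pairs of the same population from different mice it ran from 0.35 to 1.17, with a median of 0.65, so the ranges overlapped. The larger values were all from pairs with a library of mouse 3, at 0.77 to 1.17. Pairs of the same population among mice 4 to 6 ran from 0.35 to 0.52. DP and FMSP of the same mouse ran from 0.34 to 0.49 in those mice, so the gap in medians came from mouse 3. The median log2 fold change of all genes was -0.02. DP was higher than FMSP in all 4 mice for 1102 genes (6.44%) and lower in all 4 for 1023 (5.97%). The 4 DP libraries lay wholly above the 4 FMSP libraries for 93 genes (0.543%) and wholly below for 111 (0.648%). The plot over all genes sets Gzmc beside genes of similar level.

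**Figure D1:**
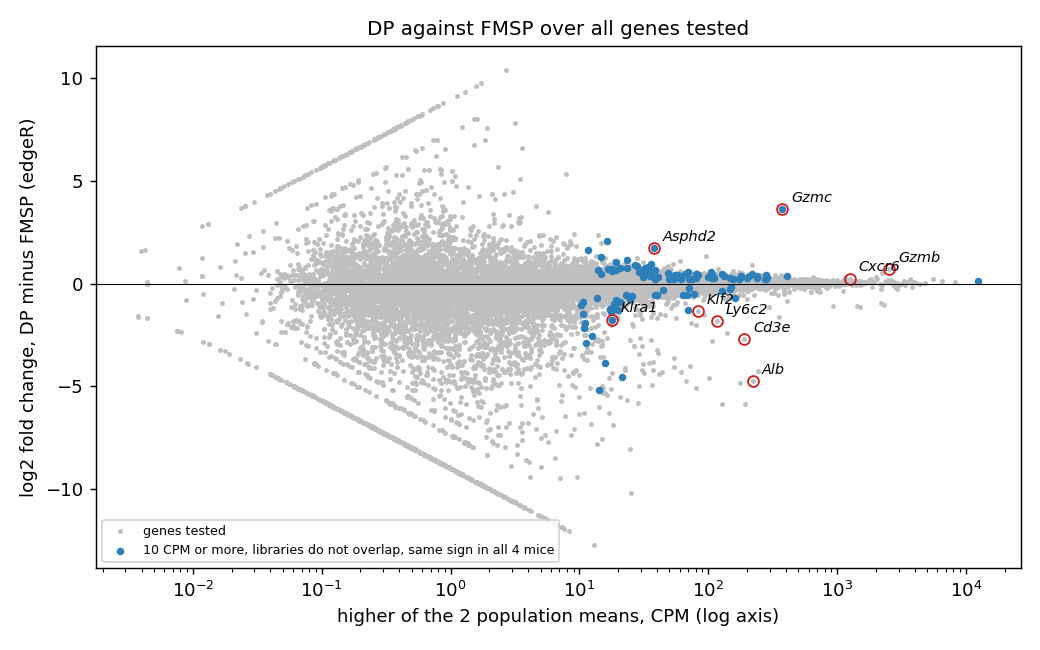
Each point is 1 of the 17124 genes tested, with the higher of its DP and FMSP means in CPM on the horizontal log axis and the edgeR log2 fold change of DP over FMSP on the vertical axis. Blue marks genes of 10 CPM or more whose 4 DP and 4 FMSP libraries do not overlap and that differ in the same direction in all 4 mice, named genes are circled in red, and Gzmc at 3.62 stands apart while Gzmb lies at 0.70. The diagonal lines of points at the left are genes near 0 counts in 1 population.

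Of the 15 genes of the granzyme and chymase row, 4 passed the filter on low counts. Gzmb, the main apoptosis-inducing granzyme, stood at 2388, 2660, 3243 and 1878 CPM in DP and at 1371, 1804, 1909 and 1155 CPM in FMSP. It was higher in DP in all 4 mice, with log2 differences within a mouse of 0.80, 0.56, 0.76 and 0.70, although DP of mouse 6 lay below FMSP of mouse 5 and the groups overlapped. The log2 fold change was 0.70 ± 0.22 (SE, interval 0.24 to 1.17, edgeR adjusted p = 1). FMSP cells thus held 57.4% to 67.8% of the Gzmb of DP cells from the same mouse, against 6.79% to 8.70% for Gzmc. DN cells averaged 541 CPM of Gzmb.

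Cma1, at the other end of the row, went the opposite way at a level near 0. It stood at 0.59, 0.49, 0.77 and 0 CPM in DP and at 2.91, 5.61, 5.10 and 3.11 CPM in FMSP, with no overlap (log2 fold change -3.17 ± 0.70, adjusted p = 1). DN averaged 40.9 CPM and NK cells 687 CPM of this gene. The granzyme genes Gzmd, Gzme, Gzmf, Gzmg and Gzmn next to Gzmc did not exceed 0.38 CPM in any DP or FMSP library. Gzmc and its neighbours are close in sequence, and how the counting split shared reads is not stated.

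**Figure D2:**
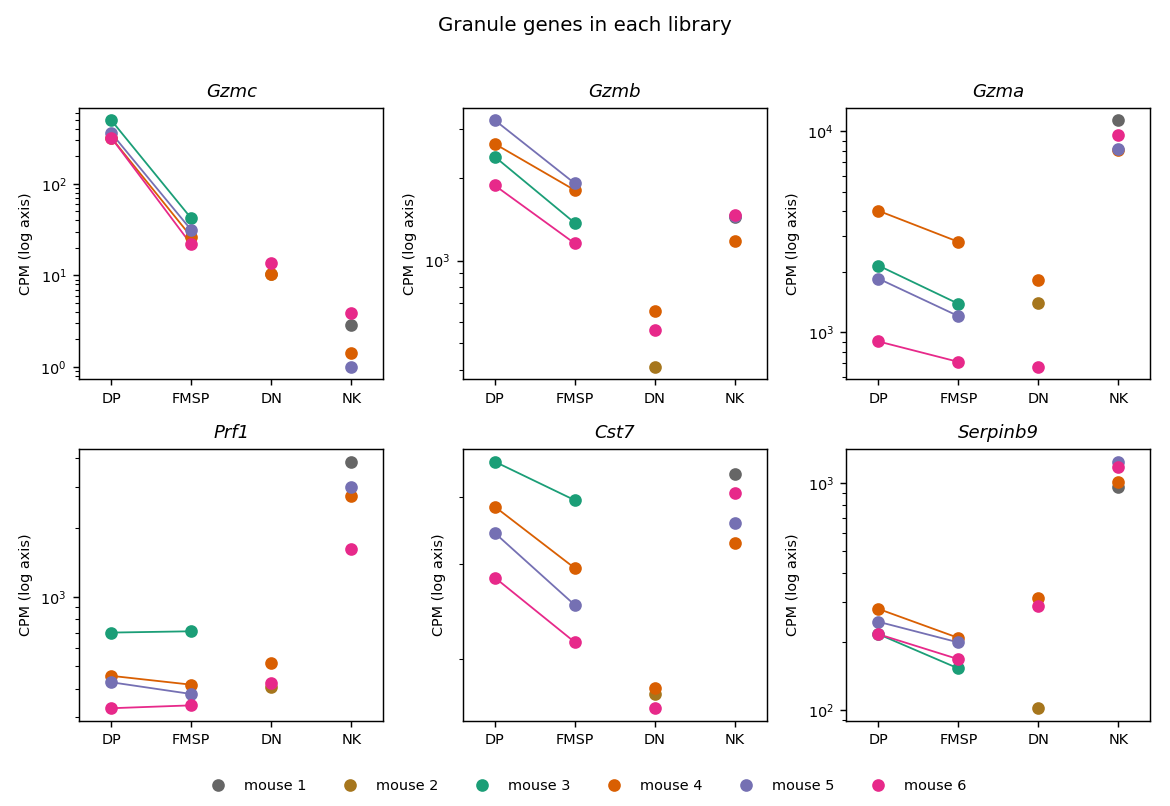
Each point is 1 library, with the population on the horizontal axis and CPM on a log axis, lines join DP and FMSP of the same mouse, and colours mark mice. The Gzmc lines drop steeply and in parallel from 320 to 496 CPM in DP to 21.8 to 42.0 CPM in FMSP, the lines of Gzmb and Gzma drop less, and those of Prf1 are nearly level.

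Of 22 members of a cytotoxic granule list, all tested, 12 were higher in DP in all 4 mice and 1, the lysosomal trafficking regulator Lyst, was lower in all 4. The median log2 fold change of the list was 0.18, against -0.02 for all genes, and it was 0.09 when the FMSP libraries of mice 5 and 6 were left out. For 15 of the 22 the 95% interval lay within a doubling in either direction, against 33.1% of all genes. None was called by edgeR, and Gzmb alone had an unadjusted p under 0.05. DESeq2 with the mouse as a term called 4, Gzmb among them, all higher in DP, against 0.475% of all genes.

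Gzma, a tryptase of the same granules encoded elsewhere in the genome, stood at 2150, 4027, 1851 and 901 CPM in DP and at 1387, 2820, 1204 and 713 CPM in FMSP. Mice differed more than populations did, and the difference within a mouse was 0.63, 0.51, 0.62 and 0.34 on the log2 scale (0.54 ± 0.45, interval -0.42 to 1.504). Serpinb9, the inhibitor that protects a cytotoxic cell from its own granzyme B, stood at 216, 278, 244 and 216 CPM in DP and at 152, 208, 198 and 167 CPM in FMSP. Its groups did not overlap, and the log2 fold change was 0.40 ± 0.27. Cst7, the cathepsin inhibitor cystatin F, stood at 0.35 ± 0.21 and overlapped.

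Prf1, which encodes perforin, stood at 700, 454, 426 and 328 CPM in DP and at 709, 416, 379 and 338 CPM in FMSP, higher in DP in 2 mice and lower in 2. Its log2 fold change was 0.05 ± 0.30, with an interval from -0.59 to 0.69, so a change by a doubling lies outside the interval. Nkg7, a granule membrane protein, stood at 0.13 ± 0.35, the death ligand Fasl at 0.18 ± 0.20, Tnfsf10 (TRAIL) at 0.27 ± 0.35, the granule proteoglycan Srgn at 0.17 ± 0.21, and the granule release factor Rab27a at 0.37 ± 0.35. Each of these 5 was higher in DP in all 4 mice and overlapped between the groups.

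Of 22 genes for activating NK receptors and their signalling chains 11 were higher in DP in all 4 mice and 0 were lower in all 4, with a median log2 fold change of 0.12. None was called by edgeR, and Fcgr3 alone had an unadjusted p under 0.05. DESeq2 with the mouse as a term called 4, all higher in DP, against 0.475% of all genes. Klrb1a, an NKR-P1 receptor, stood at 222, 166, 245 and 238 CPM in DP and at 160, 151, 165 and 144 CPM in FMSP, without overlap (0.49 ± 0.26). Fcgr3, the Fc receptor CD16, stood at 244, 181, 171 and 130 CPM in DP and at 169, 149, 107 and 88.1 CPM in FMSP (0.50 ± 0.23, interval 0.01 to 1.00, adjusted p = 1). Its chain Fcer1g was at 0.23 ± 0.25, the adaptor Tyrobp at 0.34 ± 0.27, the NKp46 gene Ncr1 at 0.24 ± 0.20 and the NKG2 partner Klrd1 at 0.26 ± 0.28. For 18 of the 22 genes the population means followed the order DP above FMSP above DN, against 19.6% of all genes. The FMSP libraries stand in both steps of that order.

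Inhibitory receptors varied more among themselves. Of 18 tested, 8 were higher in DP in all 4 mice and 0 lower in all 4, with a median of 0.25, which moved to 0.13 without the DP library of mouse 5 and to 0.38 without the FMSP library of mouse 4. Tigit, a receptor that restrains NK cells on contact with nectins, stood at 55.5, 52.5, 45.0 and 22.4 CPM in DP and at 41.6, 34.1, 24.1 and 16.9 CPM in FMSP (0.59 ± 0.34). Cd200r2 stood at 295, 256, 301 and 265 CPM in DP and at 249, 221, 208 and 153 CPM in FMSP, without overlap (0.43 ± 0.56). It is listed here as a CD200 receptor family gene, and whether it inhibits these cells was not tested. The checkpoint receptor Lag3 stood at 0.39 ± 0.47 and Pdcd1 (PD-1) at 0.36 ± 0.64, the latter higher in DP in 3 of 4 mice.

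Of 22 liver ILC1 genes 6 were higher in DP in all 4 mice and 2 lower in all 4, with a median of 0.19, and of 0.06 without the DP library of mouse 3. For 5 of the 22 the interval lay within a doubling. Cxcr6, the chemokine receptor that retains lymphocytes in the liver, stood at 1642, 1058, 1164 and 1157 CPM in DP and at 1359, 913, 1020 and 915 CPM in FMSP, against 3.98 CPM in NK cells. Its log2 difference within a mouse was 0.27, 0.21, 0.19 and 0.34. Itga1, the collagen-binding integrin CD49a, stood at 148, 559, 480 and 373 CPM in DP and at 124, 434, 380 and 333 CPM in FMSP. Both markers were thus high in every library of both populations and slightly higher in DP in each mouse. Zfp683, the residency factor Hobit, stood at -0.05 ± 0.39 and Il7r, the interleukin 7 receptor, at -0.04 ± 0.56, each higher in DP in 2 mice and lower in 2. Cd7 stood at 0.24 ± 0.24 and the chemokine receptor Ccr2 at 0.55 ± 0.41, each higher in DP in all 4 mice.

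Genes of circulating NK cells leaned the other way. Of 18 conventional NK genes 7 were lower in DP in all 4 mice and 1, Klra3, was higher in all 4, with a median log2 fold change of -0.84. None was called by edgeR, and 6 had an unadjusted p under 0.05, all lower in DP. Of all 17124 genes tested, 646 were lower and 123 higher at that level. DESeq2 with the mouse as a term called 4 lower, against 0.999% of all genes. The median was -0.54 without the FMSP library of mouse 6 and -0.23 without those of mice 5 and 6. For 12 of the 18 the population means followed the order DP below FMSP below DN, against 23.6% of all genes. All 12 were higher again in NK cells, as were 4.29% of all genes, but that last step is set by the choice of NK genes for the list. Of 12 genes for tissue exit, 6 were lower in DP in all 4 mice and 0 higher in all 4, with a median of -0.85, and 9 of the 12 followed the order DP below FMSP below DN. The FMSP libraries stand in both steps of that order. T cell genes also leaned lower in DP, with a median of -1.06 and 10 of 20 lower in all 4 mice. Their part in the NK and exit lists was not tested.

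Ly6c2, which encodes a surface protein, stood at 66.3, 15.7, 13.5 and 37.4 CPM in DP and at 189, 68.7, 62.6 and 144 CPM in FMSP. The difference within a mouse was -1.51, -2.13, -2.21 and -1.95 on the log2 scale, and the groups overlapped, since DP of mouse 3 lay above FMSP of mouse 5. The log2 fold change was -1.81 ± 0.47 (interval -2.80 to -0.81, edgeR adjusted p = 1, and 0.06 with the mouse as a replicate block). DN cells averaged 210 CPM and NK cells 1899 CPM, so DP cells held the least of the 4 populations.

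Klf2, the factor that drives tissue exit, stood at 61.8, 15.6, 25.1 and 28.2 CPM in DP and at 122, 48.5, 84.0 and 75.5 CPM in FMSP (-1.34 ± 0.41, interval -2.21 to -0.46). FMSP was 198%, 310%, 335% and 268% of DP of the same mouse. Its target S1pr1, a sphingosine-1-phosphate receptor used in leaving tissue, was at 5.44, 1.34, 6.14 and 5.86 CPM in DP and at 12.4, 3.59, 11.1 and 16.4 CPM in FMSP (-1.21 ± 0.48). S1pr5, the related receptor of NK cells, stood at 3.24, 10.8, 8.41 and 4.49 CPM in DP and at 18.8, 15.4, 14.2 and 21.8 CPM in FMSP, without overlap (-1.38 ± 0.43). S1pr5 averaged 510 CPM in the NK cells, which were sorted on a reporter of this gene.

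The fractalkine receptor Cx3cr1 stood at -1.21 ± 0.52 and the exchange factor Rasgrp2 at -0.44 ± 0.34, each lower in DP in all 4 mice. Other NK genes varied between mice. Eomes, the transcription factor of NK cells, stood at 6.62, 0.55, 3.68 and 0.32 CPM in DP and at 3.55, 4.58, 6.24 and 7.61 CPM in FMSP, lower in DP in 3 of 4 mice and far under the 440 CPM of NK cells. The integrins Itga2 (CD49b) and Itgam (CD11b) stood at 0.36 ± 0.48 and 1.08 ± 0.52, each higher in DP in 3 of 4 mice.

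**Figure D3:**
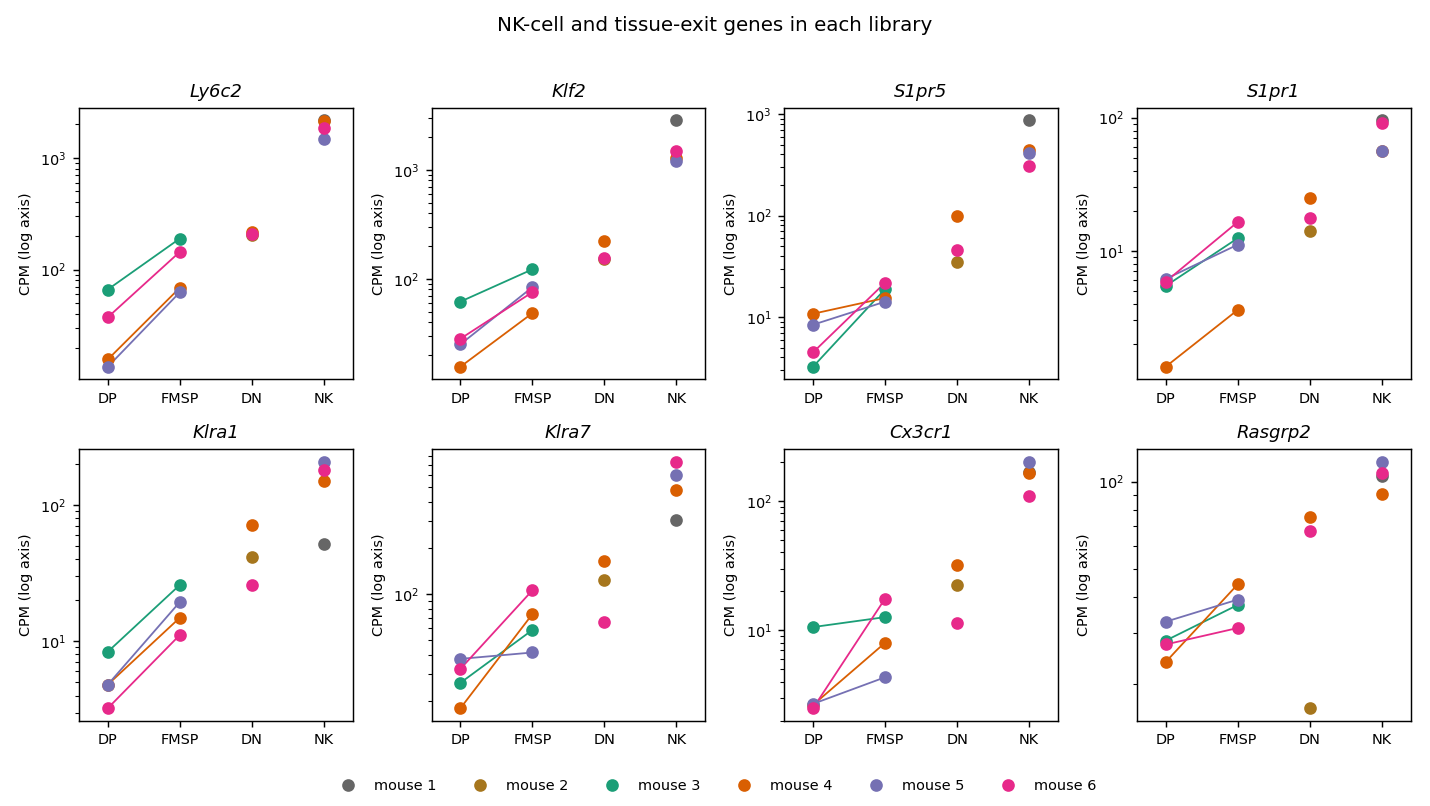
Each panel is 1 gene, each point 1 library, with the population on the horizontal axis and CPM on a log axis, and lines join DP and FMSP of the same mouse. All lines go up from DP to FMSP in the 8 panels, and the means of DN and of NK lie higher again, with Ly6c2 averaging 210 CPM in DN and 1899 CPM in NK. The panels show only genes lower in DP in all 4 mice, as were 7 of 18 conventional NK genes and 6 of 12 tissue exit genes.

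The Ly49 receptors, which NK cells use to sense MHC class I, split. Of 13 tested 4 were lower in DP in all 4 mice and 2 higher in all 4, and all 4 of the lower ones lay wholly below FMSP. Over all genes 5.97% were lower in all 4 mice, 6.44% were higher and 0.648% lay wholly below. Klra1 (Ly49A) stood at 8.38, 4.81, 4.81 and 3.23 CPM in DP and at 25.9, 14.9, 19.4 and 11.1 CPM in FMSP (-1.75 ± 0.44). Klra7 (Ly49G) stood at 26.3, 17.96, 37.7 and 32.5 CPM in DP and at 58.3, 74.0, 41.5 and 106 CPM in FMSP (-1.29 ± 0.36). Klra3 (Ly49C) stood the other way, at 34.4, 35.4, 37.7 and 28.7 CPM in DP and 13.7, 22.4, 30.7 and 8.86 CPM in FMSP (0.85 ± 0.45), and its groups overlapped. The list median of -0.51 turned to 0.08 without the FMSP library of mouse 5, and so its sign rests on that library. Ly49 genes are near-identical copies, and reads split between them make single members uncertain.

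Of 39 lymphocyte transcription factors 19 had intervals within a doubling, 3 were higher in DP in all 4 mice and 5 lower, with a median of -0.17, which was -0.02 in mice 4 to 6. The ILC1 factor Tbx21 (T-bet) stood at -0.05 ± 0.32, Id2 at 0.07 ± 0.20 and Gata3 at 0.01 ± 0.17, all with intervals within a doubling. Klf2, Tcf7, Bcl11b, Id3 and Rora were lower in DP in all 4 mice, and Ikzf1, Klf6 and Runx1 higher. Tcf7, the factor TCF-1 of precursor and memory-like lymphocytes, stood at 92.0, 76.8, 66.2 and 123 CPM in DP and at 237, 109, 95.98 and 145 CPM in FMSP (-0.71 ± 0.29). Runx1 stood at 69.3, 89.2, 93.9 and 85.3 CPM in DP and at 47.5, 74.7, 62.25 and 56.8 CPM in FMSP (0.49 ± 0.25). The orphan receptor Nr4a1, an immediate response gene of antigen receptor signalling, stood at 21.2, 13.85, 53.4 and 15.5 CPM in DP and at 37.4, 32.5, 102 and 41.9 CPM in FMSP (-1.04 ± 0.44). Other immediate early genes were mixed: of 24 such and heat shock genes 6 were lower in DP in all 4 mice and 2 higher in all 4.

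Of 17 cytokines and chemokines tested 1 was higher and 1 lower in DP in all 4 mice, with a median of 0.07, and 8 had intervals within a doubling. Interferon gamma (Ifng) stood at 47.8, 104, 135 and 153 CPM in DP and at 48.8, 123, 103 and 160 CPM in FMSP (0.02 ± 0.43). The chemokine Ccl5 stood at 0.07 ± 0.28. Csf1, a growth factor for macrophages, was the member higher in all 4 mice, at 65.2, 78.6, 43.2 and 27.7 CPM in DP and 35.03, 23.2, 31.1 and 21.9 CPM in FMSP (0.95 ± 0.61). Ribosomal protein genes and respiratory chain genes had intervals within a doubling for 38 of 38 and 32 of 33. Among 36 interferon-stimulated genes 2 were higher and 3 lower in all 4 mice, and among 36 cell cycle genes 0 and 2.

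**Figure D4:**
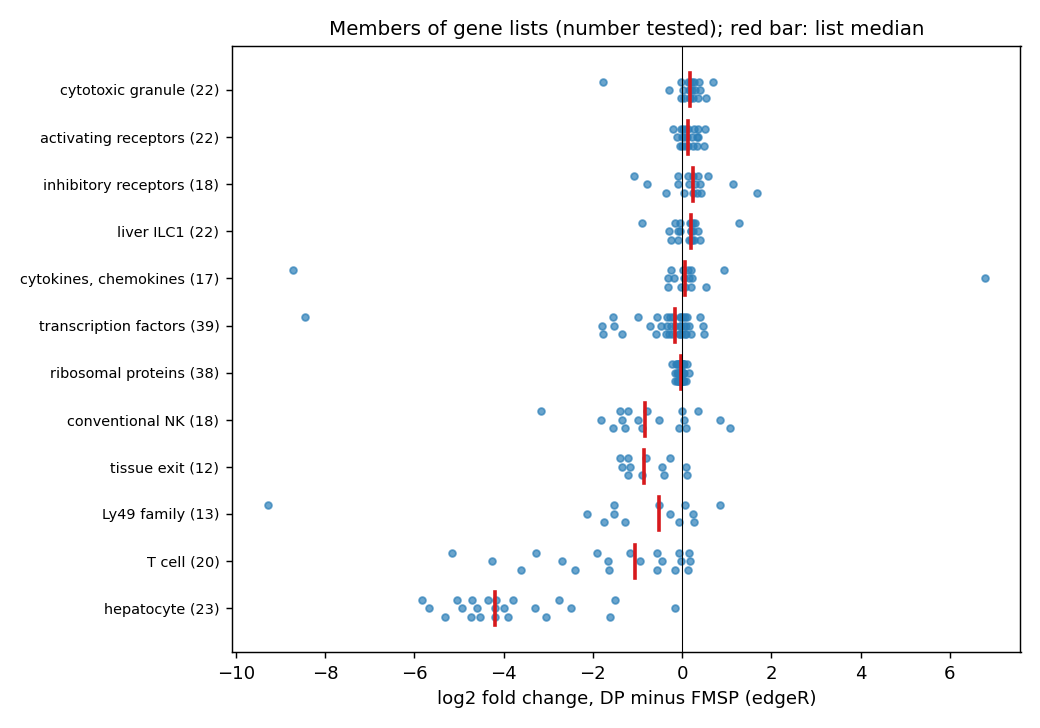
Each point is the edgeR log2 fold change of DP over FMSP of 1 gene, rows are gene lists with the number tested in brackets, and red bars are list medians. The ribosomal proteins hug 0, the granule, activating receptor, inhibitory receptor and liver ILC1 lists lie slightly to the right at medians of 0.12 to 0.25, and the conventional NK, tissue exit, T cell and hepatocyte lists lie to the left at -0.84, -0.85, -1.06 and -4.18.

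Several transcripts typical of T cells were lower in DP. Of 20 T cell genes tested 10 were lower in DP in all 4 mice and 1, Trbc1, was higher in all 4, with a median of -1.06. That median was -0.58 without the FMSP library of mouse 3 and -1.64 without the DP library of mouse 3. None was called by edgeR, and 8 had an unadjusted p under 0.05, all lower in DP. DESeq2 with the mouse as a term called 9 lower and 0 higher, against 0.999% of all genes lower and 0.475% higher. Cd3e, a signalling chain of the T cell receptor, stood at 62.4, 21.3, 14.6 and 19.6 CPM in DP and at 304, 141, 32.4 and 281 CPM in FMSP (-2.68 ± 0.86), and DN cells averaged 294 CPM. Trac, the constant region of the alpha chain, stood at 45.5, 13.3, 13.4 and 33.4 CPM in DP and at 170, 68.9, 30.65 and 286 CPM in FMSP (-2.39 ± 0.62). Cd3d was at -1.89 ± 0.61, and the gamma chain constant regions Tcrg-C1 and Tcrg-C2 at -1.63 ± 0.80 and -1.66 ± 1.02. Cd5 and Cd6, surface proteins of T cells, were at 0 CPM in 2 DP libraries each.

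Members of the T cell list differed from each other. Cd3g, also a member of the liver ILC1 list, stood at 926, 1153, 602 and 316 CPM in DP and at 889, 950, 474 and 386 CPM in FMSP (0.15 ± 0.61). The summed T cell list ran from 2727 to 3565 CPM in DP and from 2876 to 4273 CPM in FMSP, lower in DP in 3 of 4 mice. The summed B cell list was lower in DP in 4 of 4 mice, at 690 to 4491 CPM against 944 to 6027 CPM, and the summed red cell list reached 3769 CPM in DP and 11950 CPM in FMSP. The part of T cell transcripts in the differences of Ly6c2, Klf2, S1pr1 and Tcf7, which T cells also express, was not tested.

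**Figure D5:**
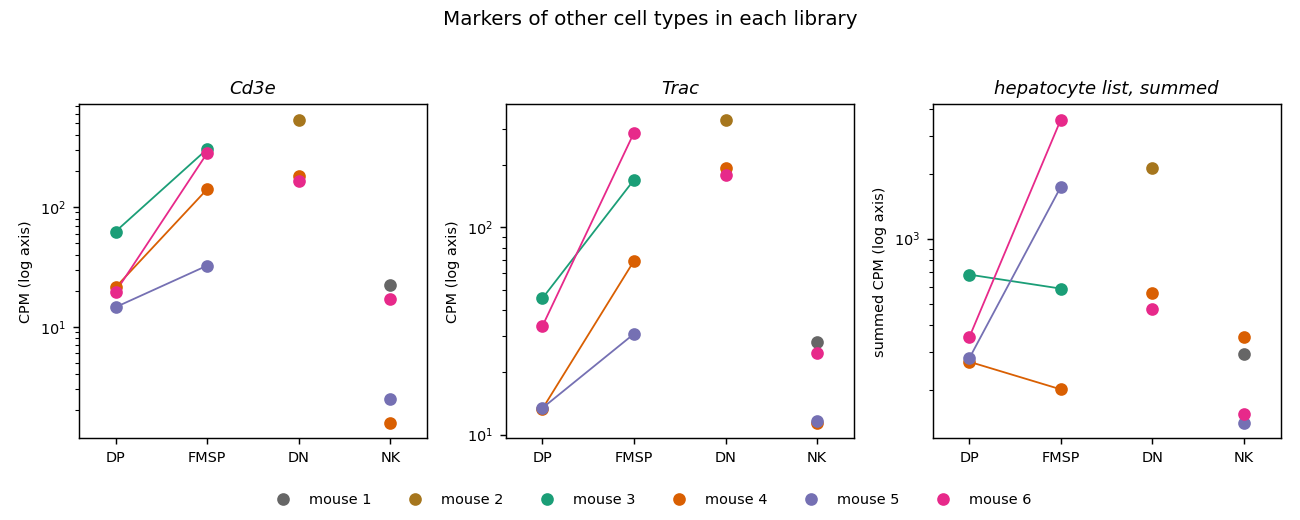
Each point is 1 library, with the population on the horizontal axis and CPM on a log axis for Cd3e, Trac and the summed hepatocyte list, and lines join DP and FMSP of the same mouse. Cd3e and Trac go up from DP to FMSP in all 4 mice, whereas the hepatocyte sum goes up in mice 5 and 6 only, to 1738 and 3555 CPM.

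Hepatocyte transcripts were high in 2 FMSP libraries. The summed list of 23 genes ran from 270 to 682 CPM in the 4 DP libraries and stood at 588, 201, 1738 and 3555 CPM in FMSP of mice 3 to 6. Albumin (Alb) was at 10.98, 2.83, 7.59 and 12.3 CPM in DP and at 22.2, 5.99, 255 and 608 CPM in FMSP. The list median of -4.18 became 0.11 without the FMSP libraries of mice 5 and 6. Those libraries also bear on other results: without them the log2 fold change of Gzmc was 3.45 ± 0.53 and its edgeR adjusted p 0.409, so the call was lost at 2 FMSP libraries. In mice 3 and 4 alone, with the mouse as a replicate block, Gzmc stood at 3.58 ± 0.15 (edgeR adjusted p = 0.0517), a restriction chosen after the data were seen.

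Over all genes tested, Gzmc and list members included, 66 genes of at least 10 CPM lay wholly above FMSP in DP and 32 wholly below. Each had the same direction in all 4 mice, and predicted genes were not counted. Their median log2 fold changes were 0.43 and -0.90. Without the limits on level and symbol, 93 genes (0.543%) lay wholly above and 111 (0.648%) wholly below. The genes that follow are outside the lists and were chosen after their values were seen. Asphd2, an aspartate beta-hydroxylase family gene, stood at 44.0, 35.6, 29.4 and 41.9 CPM in DP and 13.0, 10.7, 11.1 and 10.8 CPM in FMSP (1.73 ± 1.15, edgeR adjusted p = 1). With the mouse as a replicate block it stood at 1.70 ± 0.20 (interval 1.21 to 2.19, edgeR adjusted p = 0.271). Like Gzmc it was lower again in DN, at 3.88 CPM, and in NK cells, at 0.27 CPM. DN means below FMSP means were found for 27 of the 66 genes wholly above. The order DP above FMSP above DN held for 19.6% of all genes. Cdkn1c, the cell cycle inhibitor p57, stood at 8.04, 9.38, 11.6 and 17.3 CPM in DP and 1.36, 2.31, 3.77 and 7.43 CPM in FMSP (1.64 ± 0.67), and DN cells at 10.9 CPM did not follow that order. Gramd3 stood at 2.84, 3.13, 2.755 and 2.86 CPM in DP and at 5.78, 8.24, 8.77 and 21.4 CPM in FMSP (-1.93 ± 0.37). Fuk, which encodes fucose kinase, stood at 0.96, 3.37, 1.31 and 3.02 CPM in DP and 12.7, 20.0, 7.52 and 9.56 CPM in FMSP (-2.52 ± 0.69). None of these was called by edgeR, with or without the block, and all 4 were called by DESeq2 with the mouse as a term, at adjusted p of 4.27e-12 for Asphd2, 0.00178 for Cdkn1c, 0.0201 for Gramd3 and 1.04e-05 for Fuk. DESeq2 on all libraries called Gramd3 and Fuk of these.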

How the data were processed

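The authors deposited their RNA-seq as a table of expected counts, all whole numbers, for 35645 gene symbols in sorted liver cells. Per the submitters' processing notes, Salmon 1.6, DESeq2 and mm10 were used, and no further step is given in the sources used here. Genes were kept by filterByExpr at a minimum count of 10 over all 15 RNA libraries, scaled with TMM and fitted with edgeR 4.0.16 (robust quasi-likelihood, R 4.3.3) with 1 mean per population, which left 11 residual degrees of freedom. P-values are 2-sided and Benjamini-Hochberg adjusted over all 17124 genes, and a call is an adjusted p under 0.05. CPM are on TMM-scaled sizes. Log2 CPM for differences within a mouse used a prior count of 2. Alternatives used DESeq2 1.42.0 and limma 3.58.1. Library numbers are mice, which pairs DP with FMSP: deviations from the population means correlated at 0.469, 0.274, 0.094 and 0.250 between DP and FMSP of mice 3 to 6. The fits were tested on simulated data, where the paired DESeq2 fit also called many unchanged genes. The simulated libraries had no mouse effect, unlike the deposited ones, so this does not settle its calls here. P-values of the main fit rest on the spread between libraries within a population, pooled over all 4 populations. That fit takes DP and FMSP of the same mouse as independent, and only the fits with the mouse use the pairing.

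The comparison, the gene lists and the alternatives were chosen with earlier results of these data known. The rule for named genes asked for up to 12 per direction among called genes of at least 10 CPM without overlap, with no predicted genes, filled with genes called under the replicate block that had the same sign in all 4 mice. It gave Gzmc alone, and members of the lists could also be named. The ATAC libraries were not used here because none is labelled DP or FMSP. Promoter sequences and positions are from RefSeq, GRCm38.p6. Whether molecular identifiers were used is not stated in the sources used here, so counts may not be independent molecules. Genes outside the lists were first picked by paired DESeq2 calls and then, after that test, by libraries that do not overlap. Some genes are not reported here.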

Additional observations from a re-analysis of the deposited data

Results flagged for a closer look

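Among 146 groups of 4 libraries tested for a library far from the other 3, 16 had one by Dixon's 95% critical value, and chance gives about 1 in 20 groups. Libraries of mouse 3 account for most of them. In DP of mouse 3, Nkg7 stood at 6459 CPM, Fcer1g at 3057, Tyrobp at 3123, Id2 at 3179, Ccl5 at 6279, Cx3cr1 at 10.57 and Cd3e at 62.37 CPM, each above the other 3 DP libraries. In the same library Tnfsf10 at 128.6 CPM and Rab27a at 57.58 CPM lay below the others. In FMSP of mouse 3, Nkg7 at 5977 CPM, Fasl at 331.5, Tbx21 at 1059 and Asphd2 at 13.04 CPM lay above the other FMSP libraries. In DP of mouse 4, S1pr1 was low at 1.344 CPM and Cd6 was high at 1.47 CPM. In FMSP of mouse 5, Nr4a1 was high at 101.5 CPM.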

How the results depend on the processing

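Gzmc was the only gene called in the main analysis and in 18 alternatives run with edgeR or limma, which covered scaling, filters, leaving out each library in turn, mice 4 to 6 only, and pairing. With the mouse as a replicate block, edgeR called 1 gene in DP and FMSP libraries alone, 1 with all libraries and 1 with limma voom, so the block changed no call. The settings that moved the count were DESeq2 on all libraries with 191 genes, of which 18 are list members, and DESeq2 with the replicate block with 208, of which 45 are. Without FMSP of mice 5 and 6, and in mice 3 and 4 with the block, edgeR called 0 genes, with 462 and 438 at an unadjusted p under 0.05, and Gzmc stood at 3.45 and 3.58, short of the threshold. Fewer samples entered these fits. Of 220 list medians under the alternatives, 199 moved by less than their spread between mice. The sign differed for the hepatocyte list in 1 setting (0.11 without FMSP of mice 5 and 6) and for the Ly49 list in 2 (0.08 without FMSP of mouse 5, 0.10 without FMSP of mice 5 and 6). With 4 mice, differences below a doubling were rarely outside their intervals.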

Other observations

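Gzmc and Asphd2 were higher in DP than in FMSP, in FMSP than in DN and in DN than in NK cells by their means, whereas Gzmb averaged 1384 CPM and Gzma 9292 CPM in NK cells, more than in DN cells at 541 and 1297 CPM. Means of DP above FMSP above DN were found for 19.6% of all genes. Transforming growth factor beta response genes had a median log2 fold change of 0.06, with 4 of 21 higher and 1 lower in all 4 mice. Among those higher was Nt5e, which encodes CD73, at 1.14. Socs3, a feedback inhibitor of cytokine signalling, stood at 24.0, 11.8, 19.2 and 15.2 CPM in DP and at 39.8, 19.8, 35.1 and 53.4 CPM in FMSP.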
